A study of Mus musculus with 9 samples.

Results

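The 38 genes described here are those of fatty acid oxidation, of ketone body metabolism and of the transcriptional programme of the nuclear receptor PPARα in mouse liver. They were chosen by gene symbol, each with every array probe that carries its current or older symbol (Dci for Eci1, Peci for Eci2). Of the 38 genes 36 had a named probe, and 33 were tested because a probe was detected on at least 3 of the 9 arrays, out of 10408 genes tested in all. Acsl1 and Ucp2 had no named probe in the annotation used here, and the probes of Cpt1a, Fabp1 and Vnn1 were not detected on any array. The RNA came from livers of male C57BL/6 mice 8 weeks of age, in 3 groups of 3 arrays. One group was given triiodothyronine (T3, the active thyroid hormone) for 3 days and an siRNA (a small interfering RNA) that targets FoxO1, delivered to the liver by a hydrodynamic injection into the tail vein. Another was given T3 for 3 days, which made the mice hyperthyroid, and the last was euthyroid. The labels name no control injection, so the injection and the knockdown cannot be told apart in any comparison with the siRNA group. Nothing in them ties an array to its own mouse, and the p-values therefore cover the spread among these samples, which may be technical.

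Fatty acids enter the oxidation pathway as coenzyme A esters, cross into mitochondria as carnitine esters and are shortened there by a cycle of dehydrogenation, hydration, dehydrogenation and thiolysis. Peroxisomes run a parallel cycle on very long chains, and the liver turns surplus acetyl coenzyme A into ketone bodies. PPARα is a receptor for fatty acids that pairs with the retinoid X receptor and switches on most of these genes during fasting, while T3 acts on liver metabolism through its own nuclear receptors. FoxO1, a forkhead factor that leaves the nucleus when insulin signals, promotes glucose output by the fasting liver.

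The median probe signal lay between 109 and 127 on the 9 arrays, and 36.4% to 40.5% of the 45281 probes were detected. Levels below are normalised log2 signals, which compare arrays for one probe and not one gene with another. Each change is a log2 difference of group means ± SE from the limma fit with n = 3 arrays per group, and a gene was called at an adjusted p under 0.05 over all 10408 genes. Foxo1, the target of the siRNA, was lower with T3 plus siRNA than with T3 (-1.07 ± 0.14, adjusted p = 0.00172) and, with T3, above euthyroid liver (0.77 ± 0.14, adjusted p = 0.0082). Its dimmer probe gave -0.75 and 0.05 for the same differences. Between T3 plus siRNA and euthyroid liver Foxo1 was not called on the brighter probe (-0.30 ± 0.14, adjusted p = 0.152). The dimmer probe was called lower there over single probes (-0.70, adjusted p = 0.0114).

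With the siRNA added to T3, 10 of the 33 tested members fell and none rose relative to T3 alone. They were the receptor gene Ppara itself, the carnitine enzymes Cpt2 and Crat, the peroxisomal genes Acaa1b, Ehhadh, Eci2 and Pex11a, and the PPARα targets Pdk4, Plin2 and Angptl4. On their brightest probes no gene of the mitochondrial cycle passed the test, nor did Bdh1 or Acat1 of ketone body metabolism. The dimmer probe of Hadh was called lower over single probes (-0.61, adjusted p = 0.0162). Of all genes tested, 7.72% were lower and 11.7% higher in this comparison. The median change of the tested members was -0.35, against 0.01 for all genes, and 3 of the 33 had a positive change. At an unadjusted p under 0.05 in the same limma fit, 15 members were lower and 0 higher. The count of 10 was 4 with median scaling of the arrays, which moved the median of all genes by 0.16 and left Plin2, Acaa1b, Angptl4 and Pex11a as calls, and 6 without siRNA replicate 3, where the members' median was -0.19.

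The question of T3 against euthyroid liver is which of these genes differ after 3 days of hormone. Of the 33 tested members 7 rose, namely Plin2, Pdk4, Decr2, Etfdh, Crat, Hadh and Angptl4, and none fell. The background was 7.8% of all genes higher and 10.6% lower. The members' median change was 0.14 and that of all genes -0.05. At an unadjusted p under 0.05 in the limma fit 14 members were higher and 3 lower (Acads, Acaa1a and Bdh1). The second probe of Acads went the other way (0.33, limma unadjusted p = 0.0353), as did that of Bdh1, described with the other disagreeing probes. Without background correction 13 members were higher and 1, Acaa1a, was lower (-0.31, adjusted p = 0.0386). The count of 7 higher was 6 with median scaling and 5 without euthyroid replicate 1. This comparison and the one above share the T3 arrays, so a high T3 value enters both with opposite sign.

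Against euthyroid liver, the T3-plus-siRNA group had 3 members higher, Hadh, Plin2 and Decr2, and 3 lower, Acaa1b, Acaa1a and Acat1. Of all genes 13.4% were higher and 13.3% lower, so the members' counts lay close to the background in this comparison. Their median change was -0.15 (all genes -0.02). Of the members 4 were higher and 9 lower at an unadjusted p under 0.05. This comparison shares the siRNA arrays with the first and the euthyroid arrays with the second. The count of 3 lower was 7 without background correction, when Hadha, Acads, Bdh1 and Eci1 also passed, and 5 without T3 replicate 2.

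**Figure D1:**
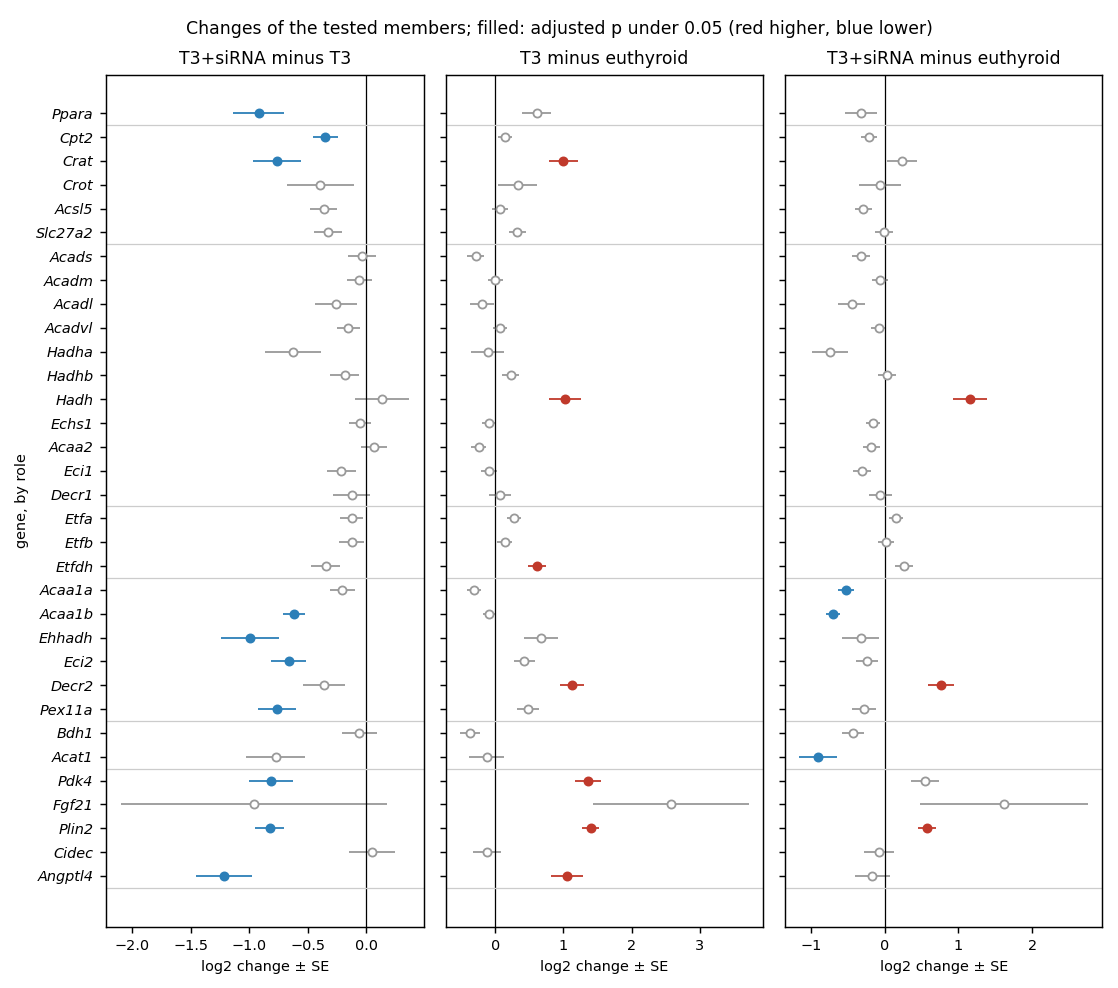
Log2 change ± SE (x axis) of each of the 33 tested members (y axis, ordered by role) for T3 plus siRNA minus T3, T3 minus euthyroid and T3 plus siRNA minus euthyroid; filled points have an adjusted p under 0.05. The 10 filled points of the first panel lie left of 0, the 7 of the second right of 0, and the third has 3 on each side.

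Ppara, the only regulator in the set, read 6.65, 7.12 and 6.10 on the T3-plus-siRNA arrays, 7.66, 7.49 and 7.49 on the T3 arrays and 6.90, 6.88 and 7.05 on the euthyroid arrays. Every siRNA array was below every T3 array, while the siRNA and euthyroid arrays overlapped. Ppara was 1.89-fold lower with T3 plus siRNA than with T3 (-0.92 ± 0.22, adjusted p = 0.0188). That call was lost without T3 replicate 1 (adjusted p = 0.0531) and with median scaling (adjusted p = 0.0558), and the change was -0.54 without background correction, its adjusted p being 0.00676. The T3 arrays were all above the euthyroid arrays, but the difference of 0.61 ± 0.22 did not pass (adjusted p = 0.0806). It did pass in 4 of 18 alternative settings, among them those without siRNA replicate 2 or siRNA replicate 3 (adjusted p = 0.0313 and 0.0199).

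Among the genes that activate fatty acids and shuttle them as carnitine esters, 5 of 7 were tested, 2 fell with the siRNA relative to T3 and 1 rose with T3 relative to euthyroid liver. Crat, the carnitine acetyltransferase that buffers acetyl coenzyme A, read 8.64, 8.10 and 8.38 with T3 plus siRNA, 8.93, 9.31 and 9.16 with T3 and 7.85, 8.56 and 7.99 in euthyroid liver. The T3 arrays were above all 6 others, and the siRNA and euthyroid arrays overlapped. Crat was 1.70-fold lower with T3 plus siRNA than with T3 (-0.76 ± 0.21, adjusted p = 0.0326) and 2.00-fold above euthyroid liver with T3 (1.00 ± 0.21, adjusted p = 0.0126). The fall was not called without siRNA replicate 2, siRNA replicate 3, T3 replicate 2 or T3 replicate 3 (adjusted p between 0.0798 and 0.0934) or with median scaling (-0.53, adjusted p = 0.193), and the rise not without euthyroid replicate 1 (0.0502).

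Cpt2, the inner-membrane carnitine palmitoyltransferase that rebuilds acyl coenzyme A inside mitochondria, had 13.26, 13.14 and 13.12 with T3 plus siRNA, 13.37, 13.66 and 13.55 with T3 and 13.38, 13.46 and 13.32 in euthyroid liver. Its siRNA arrays were below all 6 others. The 1.28-fold difference between T3 plus siRNA and T3 (-0.35 ± 0.11, adjusted p = 0.0481) was close to the threshold and held in 6 of 18 alternative settings. It was not called without any one of siRNA replicates 1, 2 and 3, T3 replicates 2 and 3 or the 3 euthyroid replicates (adjusted p between 0.0585 and 0.123), with median scaling (0.189), without the detection filter (0.0818) or adjusted over single probes (0.0615). All 3 of its probes were lower, by -0.35, -0.40 and -0.55, and over the single probes the dimmer 2 passed.

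Acsl5, a long-chain acyl coenzyme A synthetase, lay just outside the threshold between T3 plus siRNA and T3 on its brighter probe (-0.36 ± 0.12, adjusted p = 0.0552). Its dimmer tested probe gave -0.07 there (adjusted p = 0.764). Between T3 plus siRNA and euthyroid liver the 2 probes of Acsl5 had opposite signs (-0.29 and 0.28), and neither was called. Slc27a2, which imports and activates very long chains, also did not pass between T3 plus siRNA and T3 (-0.33 ± 0.12, adjusted p = 0.0859). Crot, the peroxisomal carnitine octanoyltransferase, was dim, with detection on 2 of 3 siRNA arrays, 3 of 3 T3 arrays and 1 of 3 euthyroid arrays, and did not pass in any comparison. Cpt1a, the rate-limiting carnitine palmitoyltransferase of the outer membrane, could not be assessed: its 2 probes gave raw signals between 94.0 and 131 with detection p-values of 0.126 or more. Fabp1, the liver fatty acid binding protein (raw signals 80.2 to 126), and the pantetheinase gene Vnn1 (94.2 to 116.2) were also not detected. An undetected probe sets no level for a gene.

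**Figure D2:**
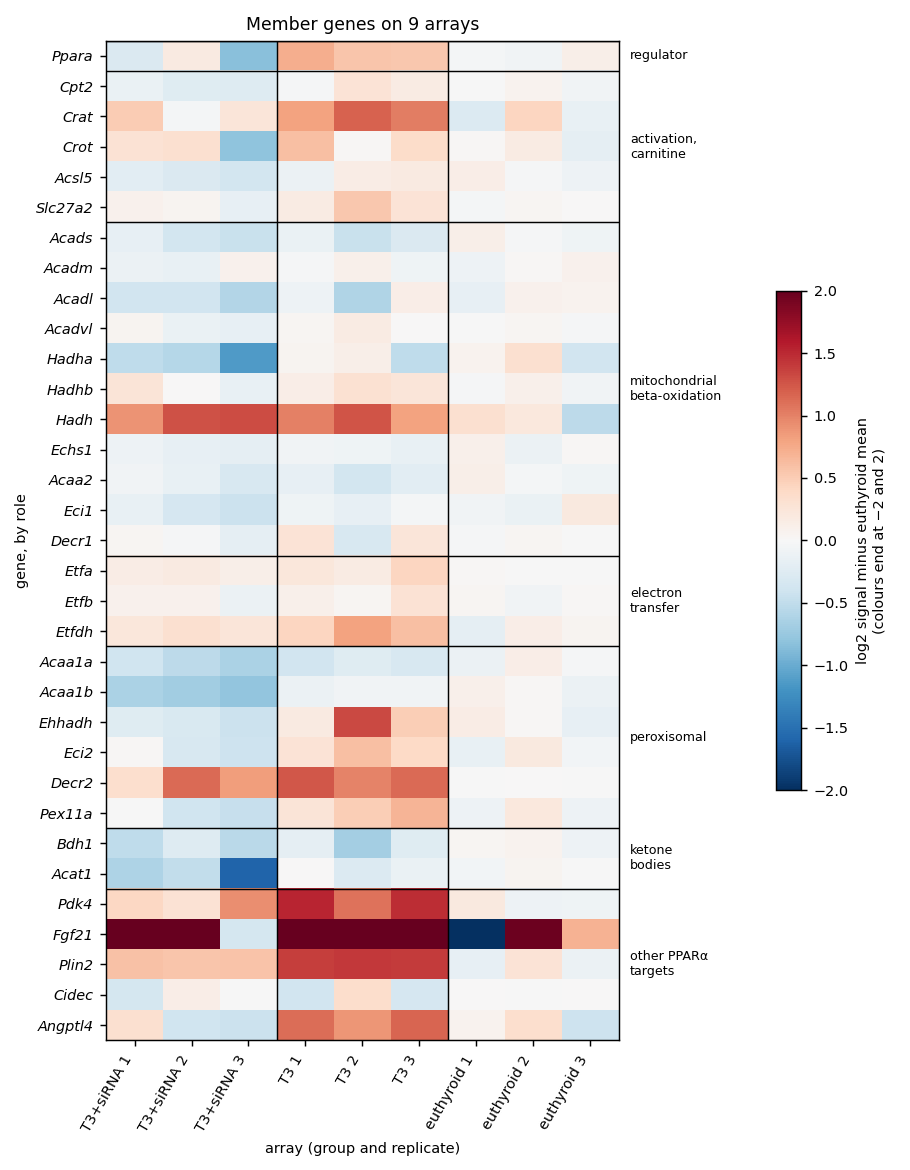
Normalised log2 signal of each tested member minus its euthyroid mean (colour, ending at −2 and 2) on the 9 arrays (columns: T3 plus siRNA, T3, euthyroid), with members in rows by role. Within each of the rows of Plin2, Pdk4, Angptl4 and Crat the T3 arrays are redder than the others, and most mitochondrial rows stay pale. The row of Fgf21 reaches the red end of the scale on the T3 arrays and on siRNA replicates 1 and 2.

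The 11 mitochondrial cycle genes were all tested and on their brightest probes mostly differed little between groups. Other probes of Hadh, Acadl, Acaa2 and Echs1 were called in some comparisons and are given below. With T3 plus siRNA against T3 the changes of the brightest probes ran from -0.63 (Hadha) to 0.14 (Hadh), with a median of -0.12. There were 0 calls among them in the limma fit (1 unadjusted p under 0.05). With T3 against euthyroid liver the median was -0.10, and Hadh was the only call. The acyl coenzyme A dehydrogenases Acads, Acadm, Acadl and Acadvl open the cycle for short to very long chains. On their brightest probes they changed by -0.03, -0.06, -0.26 and -0.15 between T3 plus siRNA and T3. None of these passed. The dimmer tested probe of Acadl gave -0.63 there (adjusted p = 0.0502), with every siRNA array below every T3 array. With a mean over each gene's probes Acadl was called lower (-0.44, adjusted p = 0.0244). Hadha, the subunit of the trifunctional protein that hydrates and dehydrogenates long chains, was lower on every T3-plus-siRNA array than in euthyroid liver (-0.74 ± 0.24) but lay just outside the threshold (adjusted p = 0.0502) and passed in 8 of 18 alternative settings. Its partner Hadhb, the thiolase subunit, differed by 0.04 ± 0.12 in the same comparison (adjusted p = 0.851). Hadha was read by 1 dim probe, with group means from 6.61 to 7.35, and which transcript that probe matches was not tested.

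Hadh, the short-chain hydroxyacyl coenzyme A dehydrogenase, read 6.63, 7.01 and 7.04 with T3 plus siRNA, 6.73, 7.00 and 6.53 with T3 and 6.05, 5.95 and 5.20 in euthyroid liver on its brighter probe. All 6 arrays of T3-treated mice were above the euthyroid ones, of which 2 of 3 detected the probe. It was 2.23-fold higher with T3 plus siRNA than in euthyroid liver (1.16 ± 0.23, adjusted p = 0.0071) and 2.03-fold higher with T3 (1.02 ± 0.23, adjusted p = 0.017). Its dimmer probe read 5.85, 5.62 and 5.63 with T3 plus siRNA, 6.33, 6.49 and 6.09 with T3 and 6.40, 6.17 and 6.29 in euthyroid liver. That probe was lower with T3 plus siRNA, by -0.59 against euthyroid liver (adjusted p = 0.0133) and -0.61 against T3 (adjusted p = 0.0162), and did not differ detectably between T3 and euthyroid liver (0.02, adjusted p = 0.936). The 2 probes were thus called in opposite directions in the comparison of T3 plus siRNA with euthyroid liver, and no direction for Hadh follows. The rise with T3 was also not called without T3 replicate 2 (adjusted p = 0.0535).

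Electron transfer from the dehydrogenases is served by the 2 subunits of the electron transfer flavoprotein, Etfa and Etfb, and by Etfdh, which hands the electrons to ubiquinone. On its brightest probe Etfdh had 11.54, 11.64 and 11.56 with T3 plus siRNA, 11.74, 12.12 and 11.93 with T3 and 11.13, 11.45 and 11.37 in euthyroid liver. The 3 groups did not overlap. Etfdh was 1.53-fold above euthyroid liver with T3 (0.61 ± 0.13, adjusted p = 0.0126), a call lost with median scaling (adjusted p = 0.0862), and its difference between T3 plus siRNA and T3 did not pass (-0.35 ± 0.13, adjusted p = 0.0825). On their brightest probes Etfa and Etfb changed by -0.13 each between T3 plus siRNA and T3, and by 0.28 and 0.14 between T3 and euthyroid liver, without passing. Another probe of Etfdh and another of Etfa were called lower with T3 plus siRNA than with T3 (-0.81, adjusted p = 0.0144, and -0.46, adjusted p = 0.0369).

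The peroxisomal genes held 4 of the 10 falls with the siRNA. Ehhadh, the bifunctional hydratase and dehydrogenase of peroxisomes, had 10.38, 10.33 and 10.19 with T3 plus siRNA, 10.81, 11.95 and 11.12 with T3 and 10.78, 10.65 and 10.45 in euthyroid liver. The siRNA arrays were the lowest of the 9, and T3 replicate 2 stood well above the other T3 arrays. Ehhadh was 1.99-fold lower with T3 plus siRNA than with T3 (-0.99 ± 0.25, adjusted p = 0.0236), a call lost without siRNA replicate 2 (adjusted p = 0.0528), without siRNA replicate 3 (0.0752) and with median scaling (0.0728). Between T3 and euthyroid liver it did not pass (0.67 ± 0.25, adjusted p = 0.091), though it did without T3 replicate 1 (0.91, adjusted p = 0.0328). Without T3 replicate 2 that difference was 0.34, and the one between T3 plus siRNA and T3 was -0.66 and still called.

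Eci2, the isomerase that moves double bonds of unsaturated chains in peroxisomes, read 11.84, 11.50 and 11.40 with T3 plus siRNA, 12.09, 12.43 and 12.22 with T3 and 11.67, 12.02 and 11.77 in euthyroid liver. Its T3 arrays were above all others. It was 1.58-fold lower with T3 plus siRNA than with T3 (-0.66 ± 0.15, adjusted p = 0.0168), which was lost without siRNA replicate 3 (0.0591), without T3 replicate 2 (0.0504) and with median scaling (0.0683).

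Pex11a, a membrane protein that drives peroxisome division, had 11.78, 11.40 and 11.33 with T3 plus siRNA, 12.05, 12.28 and 12.48 with T3 and 11.69, 11.995 and 11.69 in euthyroid liver. The T3 arrays were again above all others. Pex11a was 1.70-fold lower with T3 plus siRNA than with T3 (-0.76 ± 0.16, adjusted p = 0.0128), and its fall was called in all 18 alternative settings. Each of its 4 probes was called lower, with changes from -1.16 to -0.76. Between T3 and euthyroid liver the 4 probes gave 0.48 to 1.18, of which 2 passed over the single probes, while the brightest did not (0.48 ± 0.16, adjusted p = 0.07).

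Of the peroxisomal thiolases, which cut acetyl coenzyme A from the chain, Acaa1b fell with T3 plus siRNA against both other groups and Acaa1a against euthyroid liver. Acaa1b read 14.69, 14.63 and 14.53 with T3 plus siRNA, 15.21, 15.25 and 15.24 with T3 and 15.41, 15.34 and 15.21 in euthyroid liver. The siRNA arrays were below all 6 others, and the T3 and euthyroid arrays overlapped. It was 1.54-fold lower than with T3 (-0.62 ± 0.10, adjusted p = 0.00336) and 1.63-fold lower than in euthyroid liver (-0.71 ± 0.10, adjusted p = 0.00158), both called in all 18 alternative settings.

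Acaa1a had 13.71, 13.60 and 13.48 with T3 plus siRNA, 13.73, 13.88 and 13.80 with T3 and 13.99, 14.25 and 14.10 in euthyroid liver. The groups did not overlap in this order. The fall relative to euthyroid liver passed with T3 plus siRNA (-0.52 ± 0.11, adjusted p = 0.00908) but not with T3 alone (-0.31 ± 0.11, adjusted p = 0.0744). T3 plus siRNA against T3 gave -0.21 ± 0.11 (adjusted p = 0.211). The 2 thiolases are close copies of each other, and whether their probes cross-hybridise was not tested.

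Decr2, the peroxisomal dienoyl coenzyme A reductase for polyunsaturated chains, read 7.88, 8.67 and 8.37 with T3 plus siRNA, 8.78, 8.54 and 8.68 with T3 and 7.54, 7.56 and 7.54 in euthyroid liver. All 6 arrays of T3-treated mice were above the euthyroid ones, and the siRNA and T3 arrays overlapped. It was 1.70-fold higher with T3 plus siRNA than in euthyroid liver (0.76 ± 0.18, adjusted p = 0.0142) and 2.18-fold higher with T3 (1.12 ± 0.18, adjusted p = 0.00507). Its second probe gave 1.09 and 1.37. Between T3 plus siRNA and T3 the difference did not pass (-0.36 ± 0.18, adjusted p = 0.185).

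Of the ketone body genes, Acat1, the mitochondrial acetoacetyl coenzyme A thiolase, had 8.23, 8.36 and 7.25 with T3 plus siRNA, 8.86, 8.58 and 8.72 with T3 and 8.80, 8.91 and 8.84 in euthyroid liver. The siRNA arrays were below all 6 others, with siRNA replicate 3 well under the other 2. Acat1 was 1.87-fold lower with T3 plus siRNA than in euthyroid liver (-0.90 ± 0.25, adjusted p = 0.0283), and -0.56 without siRNA replicate 3 (adjusted p = 0.0182). The call was lost without euthyroid replicate 1, 2 or 3 (adjusted p between 0.0665 and 0.0787). Against T3 the difference was -0.78 ± 0.25 and lay just outside the threshold (adjusted p = 0.0596). Bdh1, the hydroxybutyrate dehydrogenase that makes the last ketone body, differed by -0.06 ± 0.15 between T3 plus siRNA and T3 (adjusted p = 0.809).

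Plin2, the coat protein of lipid droplets and a target of PPARα, was called in all 3 comparisons and in all 18 alternative settings of each. It read 11.48, 11.45 and 11.46 with T3 plus siRNA, 12.27, 12.31 and 12.29 with T3 and 10.73, 11.16 and 10.78 in euthyroid liver. No 2 groups overlapped, and the siRNA arrays lay between the other groups. It was 1.77-fold lower with T3 plus siRNA than with T3 (-0.83 ± 0.12, adjusted p = 0.00265), and 2.64-fold above euthyroid liver with T3 (1.40 ± 0.12, adjusted p = 0.000661). With T3 plus siRNA it was still 1.49-fold higher than in euthyroid liver (0.57 ± 0.12, adjusted p = 0.00929).

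Pdk4, the kinase that shuts pyruvate dehydrogenase and so spares glucose, had 6.57, 6.46 and 7.09 with T3 plus siRNA, 7.68, 7.25 and 7.64 with T3 and 6.35, 6.06 and 6.07 in euthyroid liver. The 3 groups did not overlap. Pdk4 was 1.76-fold lower with T3 plus siRNA than with T3 (-0.82 ± 0.19, adjusted p = 0.017) and 2.57-fold above euthyroid liver with T3 (1.36 ± 0.19, adjusted p = 0.00303). The fall was not called without siRNA replicate 2, T3 replicate 1 or T3 replicate 3 (adjusted p between 0.0513 and 0.0545) or with median scaling (0.0858). Without background correction the 2 changes were -0.49 and 0.76, both called. The siRNA group lay just outside the threshold against euthyroid liver (0.54 ± 0.19, adjusted p = 0.0598).

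Angptl4, the secreted inhibitor of lipoprotein lipase, read 12.41, 11.70 and 11.66 with T3 plus siRNA, 13.20, 12.97 and 13.26 with T3 and 12.17, 12.44 and 11.68 in euthyroid liver. The T3 arrays were above all 6 others, which overlapped among themselves. It had the largest fall among the called members, 2.33-fold with T3 plus siRNA relative to T3 (-1.22 ± 0.24, adjusted p = 0.00916). With T3 it was 2.07-fold higher than in euthyroid liver (1.05 ± 0.24, adjusted p = 0.0176). That call was lost without T3 replicate 3, euthyroid replicate 1 or euthyroid replicate 3 (adjusted p between 0.0518 and 0.0547). A second probe was detected on 2 of 3 T3 arrays and on none of the 6 others.

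Fgf21, the hormone that liver secretes in fasting, varied widely within the T3-plus-siRNA and euthyroid groups. Its signals were 12.001, 10.96 and 8.52 with T3 plus siRNA, 11.15, 11.64 and 11.57 with T3 and 6.22, 10.84 and 9.57 in euthyroid liver. The T3 arrays were all above the euthyroid ones, but the difference of 2.58 ± 1.14 did not pass (adjusted p = 0.142) and was 1.25 without euthyroid replicate 1, the lowest array. T3 plus siRNA against T3 gave -0.96 ± 1.14 (adjusted p = 0.592). Without siRNA replicate 3 that difference was 0.02. Cidec, a lipid droplet protein, was detected on 3 siRNA, 1 T3 and 3 euthyroid arrays and did not pass in any comparison.

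**Figure D3:**
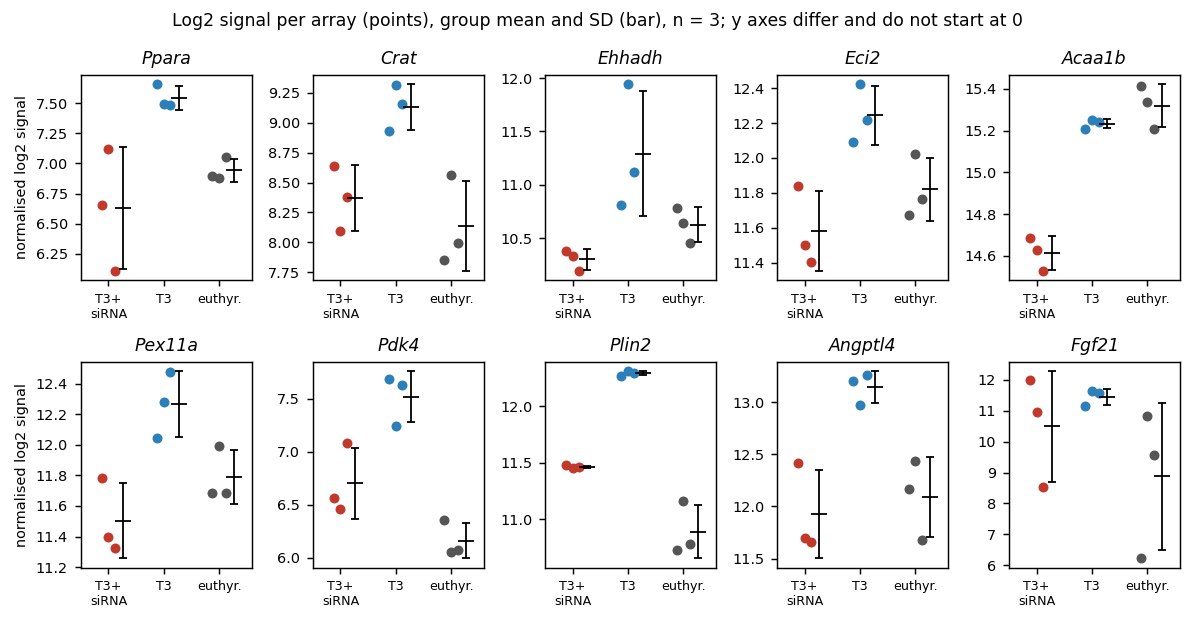
Normalised log2 signal (y axis, a separate range in each panel that does not start at 0) of 10 members on the T3-plus-siRNA, T3 and euthyroid arrays (points), with group mean and SD (bars, n = 3). The T3 points of Plin2, Pdk4, Crat, Eci2, Pex11a and Angptl4 lie above those of both other groups, the siRNA points of Acaa1b below, and the points of Fgf21 scatter widely in the siRNA and euthyroid groups.

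PPARα and the retinoid X receptor bind 2 copies of the hexamer AGGTCA with 1 base between them, and thyroid hormone receptors bind 2 copies with 4 bases between. Promoter windows of RefSeq on GRCm38.p6, from 250 bases before to 50 after each gene's start, were available for 32 of the 38 members (35 windows). On either strand and with up to 2 mismatches, the repeat with 1 base between was in 4 of these 35 windows and in 3.86% of all 32851. The repeat with 4 bases between was in 1 window, that of Acadvl, against 3.02% of all. The forkhead core GTAAACA was in 0 of 35 and in 3.65% of all, which says only that these letters are not in these windows. Of the 10 members that fell with the siRNA, 8 had a window, and that of Plin2 alone held the repeat with 1 base between. The 4 matching stretches are shown to let their spelling be compared, each read along the strand of its gene.
Plin2: GGACCCCTGACCT
Etfa: TTACCTTTGCCCT
Fabp1: TGACCTATGGCCT
Echs1: AGGTCACGGGTCC

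The match of Fabp1 has 1 mismatch and the other 3 have 2. Those of Plin2, Etfa and Fabp1 run on the strand opposite to the gene, and that of Echs1 on the gene's own strand. Fabp1 was not detected here, and Echs1 and Etfa did not pass on their brightest probes. The 250 bases before the start of Plin2 (GRCm38.p6 chr4:86670060-86670309, minus strand) are shown because Plin2 was the member called throughout, with the match in capitals, its first base 225 bases before the start.
Plin2 promoter: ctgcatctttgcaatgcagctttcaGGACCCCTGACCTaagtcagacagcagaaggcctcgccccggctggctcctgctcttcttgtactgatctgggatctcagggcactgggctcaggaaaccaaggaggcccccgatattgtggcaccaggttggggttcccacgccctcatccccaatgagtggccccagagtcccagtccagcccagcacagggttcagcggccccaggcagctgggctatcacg

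Probes of one gene did not always tell the same story. The 33 tested members had 56 tested probes, with 15 members having several. Over single probes, 17 member probes of 13 genes were lower with T3 plus siRNA than with T3 and 0 higher, where 6.91% of all 15754 probes were lower and 9.22% higher. With T3 against euthyroid liver 17 member probes of 12 genes were higher and 0 lower (9.24% of all probes higher, 9.52% lower). With T3 plus siRNA against euthyroid liver 6 probes of 4 genes were higher and 6 probes of 6 genes lower (12.8% and 11.9% of all). Probes of one gene share a target and are not independent.

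Besides Hadh, 6 members had a called probe beside one that did not follow it. For Acaa2, the mitochondrial thiolase, the brightest probe gave -0.24 between T3 and euthyroid liver, while the 3 others gave 0.53, 0.61 and 0.49, of which 2 passed (adjusted p = 0.0462 and 0.0331). The same 2 probes were called higher with T3 plus siRNA than in euthyroid liver (0.56 each, adjusted p = 0.0324 and 0.0378), where the brightest gave -0.18. Acadl gave -0.19 on the brighter and 0.92 on the dimmer probe (adjusted p = 0.0117) between T3 and euthyroid liver, and Bdh1 -0.37 and 0.72 (adjusted p = 0.0291). For these 3 genes the sign of the change with T3 thus depends on the probe, and the counts above use the brightest one.

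Etfa gave 0.28 on its brightest probe and 0.48 on each of the 2 others with T3 against euthyroid liver, where the 2 others passed (adjusted p = 0.0275 and 0.0286). With T3 plus siRNA against T3 the 3 probes of Etfa gave -0.13, -0.39 and -0.46, of which the last passed. The 4 probes of Etfdh ranged from -0.12 to 1.05 with T3 against euthyroid liver, with 2 called higher, and from -0.81 to -0.15 with T3 plus siRNA against T3, with 1 called lower. One of the 4 was called lower with T3 plus siRNA than in euthyroid liver (-0.93, adjusted p = 0.0452), where the brightest gave 0.26. Echs1, the enoyl hydratase, gave -0.15 on its brighter probe and -0.78 on its dimmer one between T3 plus siRNA and euthyroid liver (adjusted p = 0.0194 for the dimmer). Which transcripts these probes match was not tested.

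**Figure D4:**
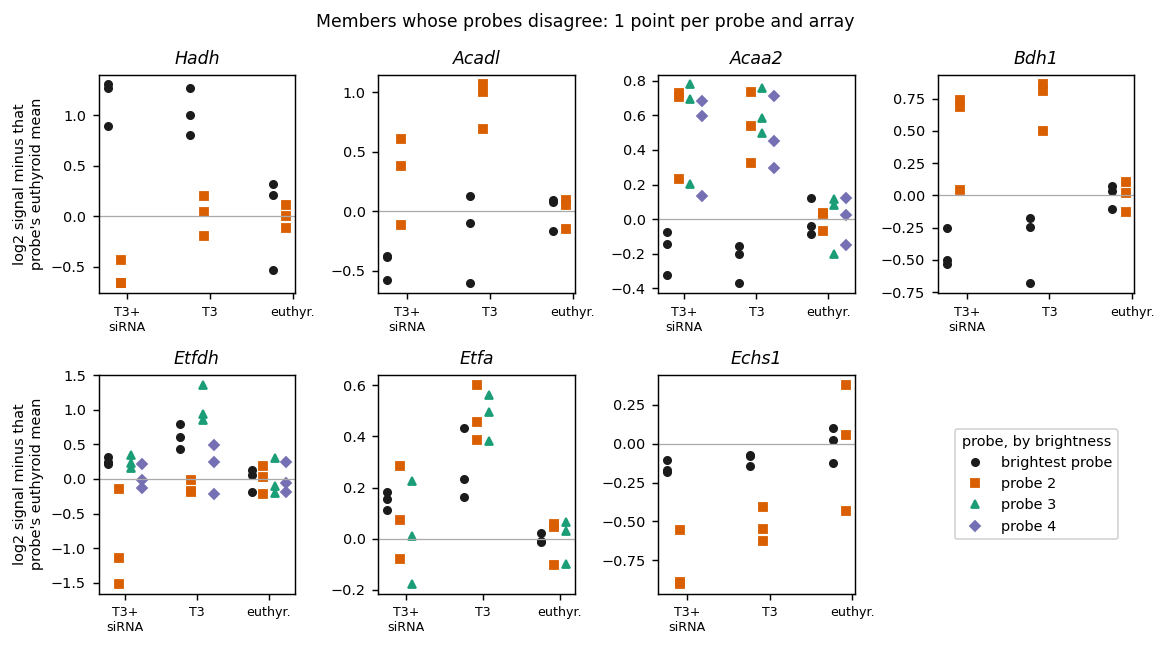
Log2 signal minus that probe's euthyroid mean (y axis) for every tested probe of the 7 members with disagreeing probes, 1 point per probe and array, in the T3-plus-siRNA, T3 and euthyroid groups. The brightest probe of Hadh lies above 0 and the other below 0 with T3 plus siRNA, and the brightest probes of Acaa2 and Bdh1 lie below 0 on the T3 arrays where the others lie above.

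Of 42 further genes of the same pathway, 35 were tested. With T3 plus siRNA against T3, 1 rose and 9 fell, with a median of -0.28. Of all genes 11.7% rose and 7.72% fell there, with a median of 0.01. The 1 rise among the 35 was that of Oxct1, the enzyme that starts ketone body use outside the liver (1.37 ± 0.14, adjusted p = 0.000606). The falls included the coactivator gene Ppargc1b (-1.35 ± 0.14, adjusted p = 0.000701), the phosphatidate phosphatase Lpin1, which also assists PPARα (-2.45 ± 0.32, adjusted p = 0.00163), the carnitine transporter Slc22a5 (-0.97 ± 0.19, adjusted p = 0.00956) and Acacb, whose product malonyl coenzyme A restrains carnitine palmitoyltransferase (-0.83 ± 0.19, adjusted p = 0.0171).

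With T3 against euthyroid liver 6 of these 35 rose and 5 fell, where 7.8% of all genes rose and 10.6% fell. The peroxisomal transporters Abcd3 (0.84 ± 0.11) and Abcd2 (1.64 ± 0.22), the synthetase Acsl3 (1.22 ± 0.16) and the peroxisomal lyase Hacl1 (1.57 ± 0.23) were the rises with the lowest adjusted p (0.00282 to 0.00368). The 4 probes of Abcd3 ranged from -0.28 to 1.71. Bdh2 (-0.92 ± 0.15), the receptor gene Pparg (-1.04 ± 0.23), the dienoyl isomerase Ech1 (-0.45 ± 0.12) and Acad10 (-0.54 ± 0.15) fell, with adjusted p between 0.00568 and 0.0399. With T3 plus siRNA against euthyroid liver 6 of the 35 rose and 14 fell, where 13.4% of all genes rose and 13.3% fell. The rises were led by Oxct1 (1.23 ± 0.14), Acsl3 (0.81 ± 0.16), Abcd2 (1.04 ± 0.22) and Acsl4 (0.78 ± 0.19), with adjusted p between 0.000907 and 0.017. The other 2 probes of Acsl4 gave 0.04 and 0.21 there and did not pass (adjusted p = 0.869 and 0.54). The 14 falls in the same comparison were led by Ppargc1b (-1.04 ± 0.14), Bdh2 (-1.002 ± 0.15), Acad10 (-0.99 ± 0.15) and Ech1 (-0.70 ± 0.12), with adjusted p between 0.00172 and 0.00351.

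Levels of some other measures also differed in the siRNA group. Its replicate 3 was the lowest of its group for 25 of the 33 tested members, and the members' median relative to the euthyroid mean was -0.32 on that array, against -0.15 and -0.00 on siRNA replicates 2 and 1, while the T3 arrays gave 0.13 to 0.25. Of 8 tested macrophage markers 5 were higher with T3 plus siRNA than with T3 and none lower, and their summed signal was 13714 to 16709 with T3 plus siRNA, 9671 to 10790 with T3 and 8359 to 8751 in euthyroid liver. Cd5l did not pass the detection filter. Among 11 stellate cell and fibroblast markers, 7 were higher and 1 lower with T3 plus siRNA than with T3, with sums of 13948 to 16347 with T3 plus siRNA, 11290 to 12341 with T3 and 12411 to 14387 in euthyroid liver. Dcn was the marker that was lower (-0.54, adjusted p = 0.0325). Single markers differed by more than the sum, and Acta2 was 21.4-fold, Col1a1 16.8-fold, Col1a2 5.60-fold and Timp1 5.40-fold higher with T3 plus siRNA than with T3 (adjusted p between 1.81e-05 and 0.00178). With T3 against euthyroid liver 4 of the 11 were lower and none higher, among them Col1a1 by 5.53-fold and Acta2 by 4.19-fold (adjusted p = 0.000613 and 0.00481). Both tested cholangiocyte markers, Krt7 and Sox9, were higher with T3 plus siRNA than with T3 (0.73 and 0.86, adjusted p = 0.042 and 0.00319). Of 3 erythroid markers 1, Slc4a1, was higher. No tested marker of sinusoidal endothelial cells (7), of neutrophils and monocytes (3) or of lymphocytes (3) was called in that comparison. Of all genes 11.7% were higher and 7.72% lower there. With T3 against euthyroid liver 7.8% of all genes were higher and 10.6% lower.

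Of 10 tested hepatocyte markers 5 were lower with T3 plus siRNA than with T3 and none higher, where 7.72% of all genes were lower. The 5 were Alb, Hnf4a, Ass1, Hpd and Tdo2, with changes from -1.08 to -0.37. Ttr, Apoa1, Serpina1c, Cps1 and F2 changed by -0.21 to 0.16 and were not called. With T3 against euthyroid liver 3 of the 10 were higher and 1, Hpd, was lower (-0.77, adjusted p = 0.00728). The sum of the 10 was 203500 to 214518 with T3 plus siRNA, 217989 to 223348 with T3 and 207817 to 219985 in euthyroid liver. Tat did not pass the detection filter. Of 6 adipocyte markers only Lep was tested. It was dim (group means 5.18 to 5.71) and was called higher with T3 plus siRNA than with T3 (0.54, adjusted p = 0.0433). Adipoq, Fabp4, Plin1 and Retn did not pass the detection filter. For a hepatocyte marker that was lower, fewer hepatocytes and less RNA of that gene per hepatocyte cannot be told apart in bulk liver RNA. The part of these markers in the members' falls was not tested.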

How the data were processed

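Liver RNA was read on Illumina bead arrays. The deposited file holds raw probe intensity and, as the file headers label it, each probe's detection p-value per array, both made by the authors. A second deposited table holds intensity values on a linear scale that match a quantile normalization of those signals, and the submitters' processing notes name Partek 6.6 without its step. The scanner is not given in the sources used here. In R 4.3.3, limma 3.58.1 (neqc, offset 16) corrected the background from 936 inferred negative controls, normalized by quantiles and took log2. Of 45281 probes, 34885 had 1 gene symbol in the platform annotation, 18 several and 10378 none. Probes detected (p under 0.05) on at least 3 of 9 arrays were kept, and the one with the highest mean stood for its gene.

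The 3 group means were estimated in 1 model over the 9 arrays (lmFit, eBayes), with two-sided tests and Benjamini-Hochberg adjusted p-values over 10408 genes. A second fit over 15754 single probes gave the values of other probes. With 3 arrays per group precision is limited, and the offset makes folds of dim probes too small. The fit was tested on simulated data with known changes. The 38 members, the pathway and marker lists and the tests were chosen with earlier results of these data known. Values by array are given for members past the threshold in any comparison and for Ppara, Cpt1a and Fgf21, disagreeing probes are shown singly, and of the further pathway genes up to 4 per comparison and direction are named. Alternatives changed the background step, scaling, filter, probe rule, block and array weights, used the deposited normalized values, or left out 1 array.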

Additional observations from a re-analysis of the deposited data

How the results depend on the processing

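For T3 plus siRNA against T3, the 10 members called lower became 4 with median scaling and 6 to 9 when 1 array was left out (6 without siRNA replicate 3). They became 14 without background correction, 14 with the authors' normalized values, 13 with detection on all 9 arrays, 12 with a mean over each gene's probes and 11 with array weights. The first 2 of these settings are close to 1 computation, because the deposited values match a quantile normalization of the raw signals. Those 2 are therefore not independent among the 18 alternatives. For T3 against euthyroid liver, the 7 called higher became 13 without background correction and 13 with the authors' normalized values. They became 6 with median scaling and 5 to 8 when 1 array was left out (5 without euthyroid replicate 1). The 0 called lower became 1 without background correction, with the authors' normalized values and with array weights. For T3 plus siRNA against euthyroid liver, the 3 called lower became 7 without background correction, 7 with the authors' normalized values, 6 with detection on all 9 arrays, 5 with a mean over each gene's probes, 5 with array weights and 2 to 5 when 1 array was left out. With detection on all 9 arrays the brighter probe of Hadh was dropped, and the remaining one gave -0.61 for T3 plus siRNA against T3 and -0.59 against euthyroid liver, both reversed. Same-numbered arrays of different groups correlated between -0.0557 and 0.0284 across genes, so the numbers were not taken as pairs. With a replicate block 9 members were lower with T3 plus siRNA than with T3 and 7 higher with T3 than in euthyroid liver, with 3 higher and 4 lower for T3 plus siRNA against euthyroid liver. Under the block the calls of Cpt2 and Crat for T3 plus siRNA against T3 were not made (adjusted p = 0.082 and 0.0583), and Hadha was called lower there (0.0106) and against euthyroid liver (0.00519). Over all genes, calls for T3 against euthyroid liver numbered 1917, and the counts were 406 higher and 490 lower without euthyroid replicate 1 and 301 higher and 615 lower with median scaling. For T3 plus siRNA against T3, 88.7% of calls were higher with median scaling, against 60.3% as reported, and the counts were 733 higher and 414 lower without siRNA replicate 3. Calls kept in all 18 alternatives were those of Plin2 in each comparison, Acaa1b, Angptl4 and Pex11a for T3 plus siRNA against T3, Pdk4 and Decr2 for T3 against euthyroid liver, and Acaa1b, Acaa1a and Decr2 for T3 plus siRNA against euthyroid liver. The cause of the other changes was not tested. Signal over background limits Crot, Cidec, Hadh and the undetected Cpt1a, Fabp1 and Vnn1. Hadha, Ppara and Pdk4 were also dim, and their changes were smaller without background correction.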
